A study of Mus musculus with 4 samples.

Results

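The 10 genes described here encode A20 (Tnfaip3), proteins that work with it, and other proteins that attach, read or remove ubiquitin on the route to the transcription factor NF-kB, with a pair of the kinases on that route and Tnfaip8, a gene named, like Tnfaip3, for its induction by TNF. They were chosen by gene symbol, with the genotype differences of these arrays already known. The measured value behind the choice was that of Tnfaip3, which stood among the 19 of 13782 tested genes called different between genotypes (limma, Benjamini-Hochberg adjusted p = 0.0288). For that reason the genotype differences of the 10 genes are given as a description, with errors and no further test, and support nothing by themselves. All 10 had 1 probe set annotated to that gene symbol alone, and all 10 passed the filter on low values, out of 22180 genes with such a probe set.

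The cells were naive CD4+ T cells of TACI-/- mice, and the controls were the same cells of WT mice, all C57BL/6. They were sorted by flow cytometry on surface markers of naive cells, CD44-low and CD25-negative among them, from spleen and lymph nodes that had been pooled. Each genotype had 2 arrays, labelled as biological replicates (Affymetrix Mouse Gene 2.0 ST, 1 colour, total RNA), and values are log2 units after robust multi-array averaging (RMA). How the TACI allele was made, the age of the mice and how many mice a pool held are not given in the sources used here, so p-values measure only the spread between these samples.

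NF-kB is held inactive in the cytoplasm by IkB proteins until the IkB kinase (IKK) complex marks these for destruction. Upstream of IKK, ubiquitin chains built on adaptors such as RIPK1, TRAF6 and MALT1 serve as scaffolds, and deubiquitinases take them down again. A20 is both a deubiquitinase and a ubiquitin ligase that edits or caps such chains; in T cells it is cleaved by MALT1 after antigen receptor engagement, and its gene is itself a classical NF-kB target, so it acts in negative feedback. TACI, the product of Tnfrsf13b, is a TNF receptor family member that signals through TRAF adaptors in B cells.

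Promoter windows of 3 members are shown because A20 and its adaptor ABIN-1 (Tnip1) had the largest genotype differences of the 10 and Cyld, also a deubiquitinase, one of the smallest. Each window holds 250 bases before the annotated start and 50 bases from it on, 5′ to 3′ on the gene's strand, from RefSeq on GRCm38.p6. Capitals mark matches to the kB consensus, the 10-base motif bound by NF-kB dimers, read on both strands. Tnfaip3 lies at chr10:19015361-19015660 (minus strand), Tnip1 at chr11:54962891-54963190 (minus strand) and Cyld at chr8:88696778-88697077 (plus strand).
Tnfaip3: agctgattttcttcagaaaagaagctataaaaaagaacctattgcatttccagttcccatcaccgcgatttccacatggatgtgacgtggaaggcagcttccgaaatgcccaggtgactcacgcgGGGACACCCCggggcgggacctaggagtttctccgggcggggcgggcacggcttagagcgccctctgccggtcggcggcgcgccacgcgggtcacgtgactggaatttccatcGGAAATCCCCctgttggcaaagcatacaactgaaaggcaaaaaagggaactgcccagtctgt
Tnip1: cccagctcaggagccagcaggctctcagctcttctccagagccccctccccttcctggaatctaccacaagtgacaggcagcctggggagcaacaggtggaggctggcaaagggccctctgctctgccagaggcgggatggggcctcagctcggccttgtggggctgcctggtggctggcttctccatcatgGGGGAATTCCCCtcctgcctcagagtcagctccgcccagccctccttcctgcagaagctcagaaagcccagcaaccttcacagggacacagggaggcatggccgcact
Cyld: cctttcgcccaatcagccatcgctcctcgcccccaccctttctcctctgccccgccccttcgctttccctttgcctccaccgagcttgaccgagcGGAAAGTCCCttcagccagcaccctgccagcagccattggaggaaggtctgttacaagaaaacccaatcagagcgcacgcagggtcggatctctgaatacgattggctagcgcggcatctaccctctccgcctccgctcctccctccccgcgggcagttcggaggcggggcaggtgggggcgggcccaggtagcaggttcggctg

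The Tnfaip3 window shown held 2 kB matches, which ended 116 and 3 bases before the start. The Tnip1 window held 3 that overlap each other in a single stretch, from 58 to 47 bases before the start, and the Cyld window held 1, which ended 146 bases before it. RefSeq windows were at hand for 8 of the 10 members (not for Tnfaip8 and Ikbkb), 11 windows in all. A kB match occurred in 4 of the 11, the windows of Tnip1 and Cyld, 1 of the 2 of Tnfaip3 and 1 of the 2 of Tax1bp1, and in 8.46% of all 32851 windows. A loose form of the AP-1 motif, TGANTCA with any base in the middle, was also read on both strands. It occurred in 2 of the 11 windows and in 7.81% of all windows. The 2 were the Tnfaip3 window shown (TGACTCA, 136 to 130 bases before the start, not overlapping the kB matches) and that of Ikbke (TGAATCA). These matches describe letters in the window and were not tested for binding.

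All 4 arrays had nearly equal medians, 4.11 to 4.13 log2 units over 41345 probe sets. RMA brings this about, so the medians do not check the quality of the arrays. Having 2 arrays per genotype limits the precision. Over the tested genes array pairs correlated at r = 0.976 to 0.984. Tnfrsf13b itself was dim on every array (2.73 to 3.09, under the filter of 3.74 to 3.77), so its values do not check the genotype labels. Cd4 (10.4 to 10.6) and Cd3e (11.2 to 11.6) were bright on all 4 arrays and Cd8a was under the filter on all 4. The CD8 marker Cd8b1, however, was above the filter, at 6.11 and 5.73 in TACI-/- cells, against 6.55 and 6.59 in WT cells.

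Tnfaip3 was higher in TACI-/- cells than in WT cells. Its level was 9.38 and 9.23 log2 units in TACI-/- replicates 1 and 2, against 7.91 and 7.69 in WT replicates 1 and 2. The lowest TACI-/- array stood well above the highest WT array, and the arrays of one genotype differed by far less than the genotypes did. The means were 9.31 ± 0.10 in TACI-/- cells and 7.80 ± 0.15 in WT cells (SD, n = 2 each), a log2 fold change of 1.51 ± 0.15 (SE) with a 95% interval of 1.16 to 1.86, or 2.85-fold higher. In sorted bulk cells, more cells of a type and more RNA per cell cannot be told apart. By size of change the gene was 16th of the 13782 tested. The log2 fold change lay between 1.40 and 1.62 when any 1 array was left out, but the call was then lost with each of the 4, as it was for all other genes. It was also lost with no filter on low values, where more genes were tested, and with no moderation of the variance.

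**Figure D1:**
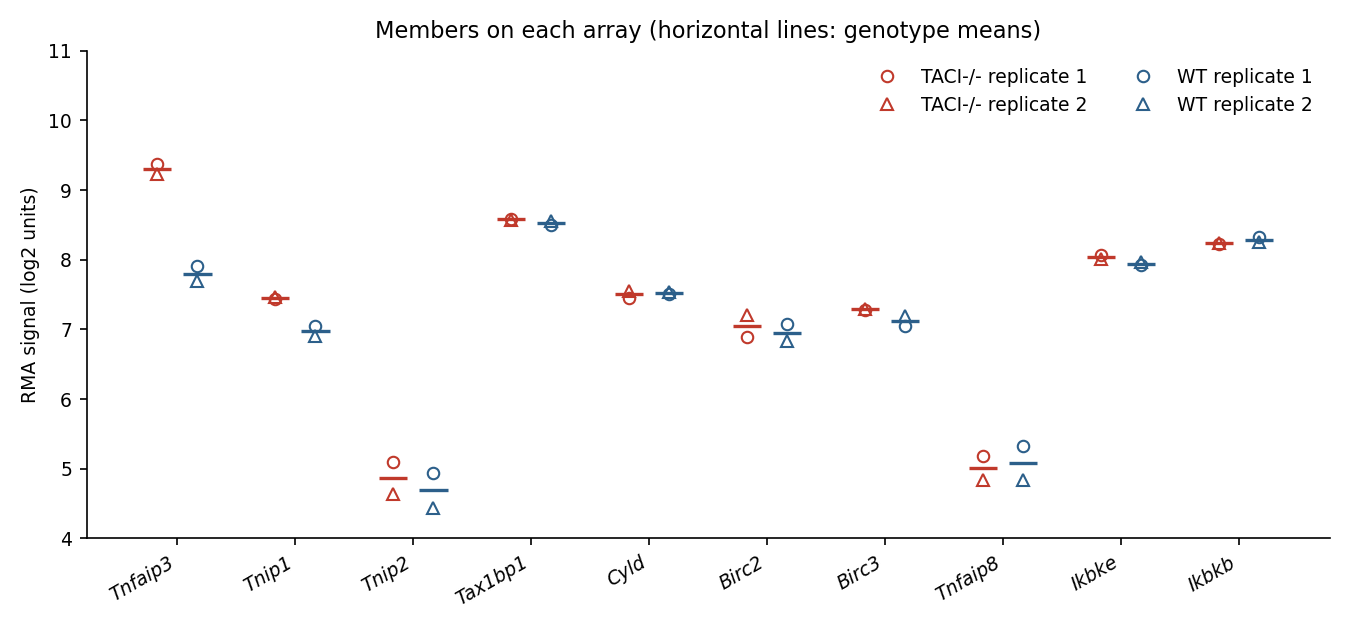
RMA signal (log2 units, vertical axis) of the 10 genes on each array; red, TACI-/-, left of blue, WT; circles, replicate 1; triangles, replicate 2; horizontal lines, means of 2 arrays. Tnfaip3 is at 9.38 and 9.23 in TACI-/- cells, against 7.91 and 7.69 in WT cells, while the arrays of both genotypes lie close together for most other genes; heights of different genes are different probe sets and are not comparable.

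A20 does its editing with ubiquitin-binding adaptors, of which 3 were members. Tnip1 encodes ABIN-1, which binds A20 and linear or K63-linked chains and helps A20 reach its substrates. It was at 7.44 and 7.46 log2 units in TACI-/- cells, against 7.05 and 6.90 in WT cells. The genotypes did not overlap, and the difference was smaller than that of Tnfaip3, a log2 fold change of 0.48 ± 0.13 (SE), or 1.39-fold higher, with a 95% interval of 0.16 to 0.80. Tnip1 was not among the genes called. Tnip1 is the 1 member on the chromosome of the targeted gene. In the RefSeq gene order 121 genes with a probe set lie between Tnip1 and Tnfrsf13b, of which 81 were tested, with a median log2 fold change of -0.02. Without overlap between genotypes, 14 of the 81 (17.3%) were higher in TACI-/- cells and 21 (25.9%) lower, against 20.5% higher and 18.1% lower over all tested genes. An unadjusted p under 0.05 (limma) was found for 5 of the 81 higher (6.17%) and 11 lower (13.6%), against 4.94% and 3.84% of all tested genes. In the interval 1 of the 81 tested genes was called, against 0.138% of all tested genes. This gene, 2610507I01Rik, was at 3.71 and 3.75 log2 units in TACI-/- cells, against 5.75 and 5.74 in WT cells. Its log2 fold change was -2.01 ± 0.13 (SE, limma adjusted p = 0.00793), and it was picked after its values were seen. Both TACI-/- values lay under the filter of their arrays (3.74 and 3.77), so the gene was tested only through its WT values. Whether the position of Tnip1 has a part in the Tnip1 value was not tested.

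Tnip2 encodes ABIN-2, which also binds A20 and stabilises the kinase TPL2. Its values were 5.10 and 4.63 log2 units in TACI-/- cells, against 4.94 and 4.43 in WT cells. Replicate 1 was higher than replicate 2 in both genotypes, by 0.47 in TACI-/- and 0.51 in WT cells, so the genotypes overlapped and the log2 fold change was 0.18 ± 0.23 (SE). Tax1bp1, an adaptor that brings A20 and the ligase Itch to their substrates and is also an autophagy receptor, was at 8.59 and 8.57 in TACI-/- cells, against 8.49 and 8.55 in WT cells. The 4 arrays lay within 0.095 log2 units of each other, and the log2 fold change was 0.06 ± 0.13 (SE).

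Cyld is a deubiquitinase that cuts K63-linked and linear chains and restrains NF-kB independently of A20; its loss in mice disturbs T cell homeostasis. Its level was 7.45 and 7.56 log2 units in TACI-/- cells, against 7.51 and 7.54 in WT cells. The WT arrays lay between the TACI-/- arrays, and the log2 fold change was -0.02 ± 0.13 (SE). The 95% interval of the Cyld difference was -0.33 to 0.29.

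Birc2 and Birc3 encode the ubiquitin ligases cIAP1 and cIAP2, which build chains on RIPK1 in TNF receptor signalling and, with TRAF2 and TRAF3, keep the alternative NF-kB pathway low. They are neighbours in the RefSeq gene order, with 0 genes with a probe set between them. Birc2 was at 6.89 and 7.21 log2 units in TACI-/- cells, against 7.07 and 6.83 in WT cells, so the genotypes overlapped. Birc3, which like Tnfaip3 is a known NF-kB target, was at 7.28 and 7.29 in TACI-/- cells, against 7.05 and 7.20 in WT cells. The Birc3 groups were separate, but the WT arrays differed from each other by about as much as the genotypes did. The log2 fold changes were 0.10 ± 0.17 for Birc2 and 0.16 ± 0.13 (SE) for Birc3.

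Of the kinases, Ikbkb encodes IKK-beta, the catalytic subunit that phosphorylates IkB in the classical pathway. It was at 8.23 and 8.24 log2 units in TACI-/- cells, against 8.33 and 8.25 in WT cells. Ikbke encodes IKK-epsilon, a relative of TBK1 known from interferon induction and as an NF-kB-inducible gene, and was at 8.07 and 8.01 in TACI-/- cells, against 7.92 and 7.96 in WT cells. Neither gene's groups overlapped, in opposite directions, and both differences were within their errors, with log2 fold changes of -0.05 ± 0.13 for Ikbkb and 0.10 ± 0.13 (SE) for Ikbke. Tnfaip8 encodes a small lipid-binding protein linked to cell survival. It was at 5.18 and 4.84 in TACI-/- cells, against 5.32 and 4.84 in WT cells. As for Tnip2, replicate 1 was the higher array in both genotypes, and the log2 fold change of Tnfaip8 was -0.07 ± 0.21 (SE).

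As a group the 10 genes held 1 called gene, Tnfaip3, against 0.138% of all tested genes called in either direction and 0.109% called higher; since that call led to the choice, nothing follows from the comparison. TACI-/- and WT arrays were separate for 6 members, 5 of them higher in TACI-/- cells (Tnfaip3, Tnip1, Tax1bp1, Birc3 and Ikbke) and 1 lower (Ikbkb). Over all tested genes 20.5% were higher and 18.1% lower without overlap. The median log2 fold change was 0.10 over the members and 0.01 over all tested genes. Above 0 were 7 of the 10 members and 7137 of all 13782 tested genes. Leaving aside Tnfaip3 and Tnip1, the other 8 log2 fold changes lay between -0.07 and 0.18 and their 95% intervals between -0.57 and 0.73, so at this precision changes of up to 1.66-fold were not resolved for the least precise of them, Tnip2.

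**Figure D2:**
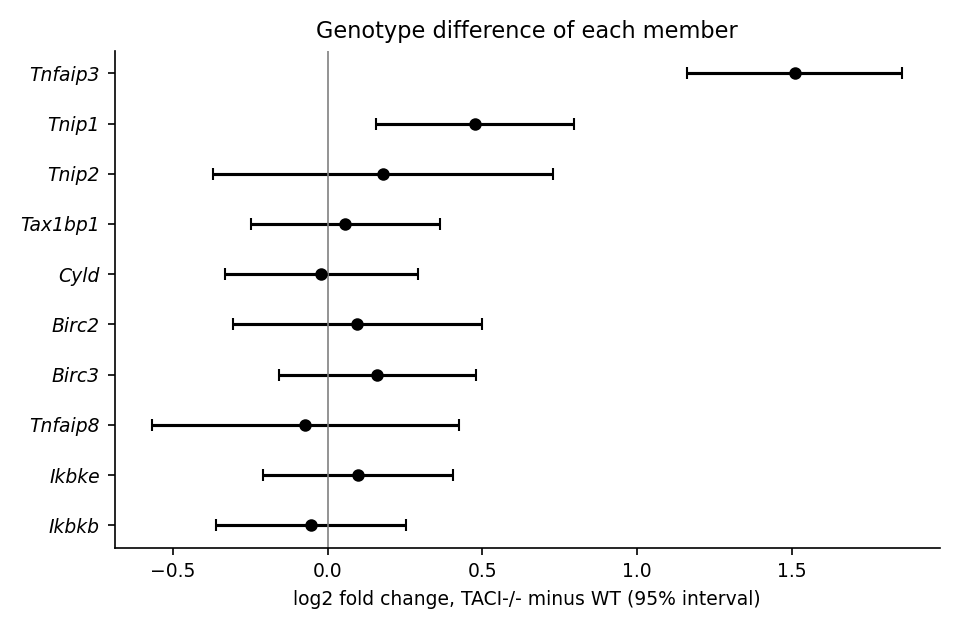
Log2 fold change, TACI-/- minus WT (horizontal axis), of the 10 genes; points, limma estimates from 2 arrays per genotype; bars, 95% intervals, not adjusted for the number of genes. Tnfaip3 stands at 1.51 and Tnip1 at 0.48, and the other 8 lie between -0.07 and 0.18 with intervals that include 0.

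**Figure D3:**
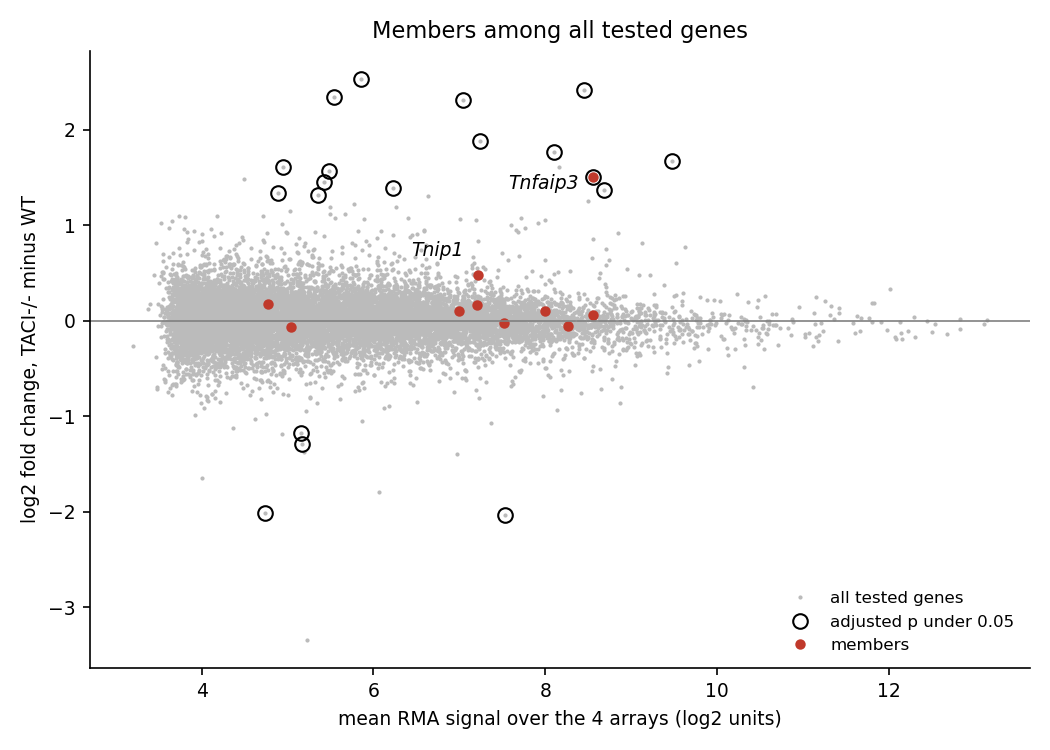
Log2 fold change, TACI-/- minus WT (vertical axis), against the mean signal over the 4 arrays (log2 units, horizontal axis) for all 13782 tested genes (grey); open circles, the 19 genes with adjusted p under 0.05; red, the 10 members. Tnfaip3 is the 1 red point inside an open circle, and Tnip1 lies at 0.48.

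The genes whose pattern over the 4 arrays was most like that of Tnfaip3 were found by the root mean square (RMS) difference after subtracting each gene's own mean, over 4 arrays, among genes other than predicted ones, receptor segments and small RNAs. The 5 nearest were the ribosomal protein gene Rpl3 (RMS difference 0.10 log2 units), the MAP kinase phosphatase gene Dusp1 (0.11), the kinase gene Plk2 (0.13), the transcription factor gene Irf4 (0.14) and the inhibitory receptor gene Ctla4 (0.15). Irf4, for example, was at 5.70 and 5.82 log2 units in TACI-/- cells, against 4.13 and 4.16 in WT cells. The log2 fold changes of the 5 ran from 1.34 (Plk2) to 1.67 (Rpl3), so they match Tnfaip3 in size of change as well as in shape, which the measure requires. Rpl3 had 3 probe sets that disagreed, with log2 fold changes of 1.67, 0.67 and -0.29 from the brightest to the dimmest, so its likeness rests on the brightest.

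The other ubiquitin and NF-kB genes were grouped into 11 lists. Of 111 listed genes that are not members, 85 were tested, and none passed an adjusted p under 0.05 (limma); 13 had an unadjusted p under 0.05, all 13 of them higher in TACI-/- cells. Over all tested genes an unadjusted p under 0.05 was found for 4.94% higher and 3.84% lower. The 13 were uneven over the lists, with 7 of the 18 tested NF-kB induced genes, 3 of the 10 NF-kB subunit and IkB genes, and at most 1 in each other list. The lists share some genes.

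Genes that build and remove the chains came in 3 lists, with 0 called genes (limma) and 2 genes at an unadjusted p under 0.05. In the linear ubiquitin list (4 tested genes, median log2 fold change 0.13), Otulin, the deubiquitinase of linear chains, was at 6.48 and 6.59 log2 units in TACI-/- cells, against 6.21 and 6.21 in WT cells (limma adjusted p = 0.568). Rnf31, the catalytic subunit HOIP of the linear chain ligase, had a log2 fold change of 0.27 ± 0.14 (SE). Among 14 conjugation genes (median 0.01), Traf6 had 0.13 and Xiap -0.24. Of A20's own partners, Itch, a ligase of the editing complex, was at 7.03 and 7.06 in TACI-/- cells, against 7.10 and 7.13 in WT cells, and Rnf11, also of that complex, was at 4.95 and 5.45 in TACI-/- cells, against 4.98 and 5.62 in WT cells. Itch and Rnf11 thus had log2 fold changes of -0.07 ± 0.13 and -0.10 ± 0.26 (SE), beside 1.51 for Tnfaip3. The largest difference among the 14 partners and deubiquitinases (median -0.08) was that of Usp2, at 5.68 and 5.32 in TACI-/- cells, against 4.60 and 4.79 in WT cells, 0.80 ± 0.17 (SE) as a log2 fold change (limma adjusted p = 0.263). The deubiquitinase gene Usp11 had 0.24 ± 0.18 (SE).

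Among relatives of the members by family, no gene was called and none had an unadjusted p under 0.05 (limma). The A20-type zinc finger genes (5 tested, median log2 fold change -0.02) included Otud7b, a deubiquitinase known as Cezanne, with 0.21 and Zfand6 with -0.18. Ikbkg, the IKK subunit NEMO that reads ubiquitin chains with the same kind of domain as the ABIN proteins, had -0.10 ± 0.13 (SE), and the third ABIN gene, Tnip3, was under the filter on all 4 arrays. The 2 tested relatives of Tnfaip8 had -0.06 (Tnfaip8l1) and 0.07 (Tnfaip8l2). The 3 tested relatives of the cIAP genes went both ways, with log2 fold changes of -0.24 for Xiap, -0.19 for Birc6 and 0.27 for Naip5.

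On the way to and at the IKK complex, 13 genes of the TAK1, IKK and TBK1 complexes had a median log2 fold change of -0.04, the widest being Cflar at -0.24, a caspase-8-like inhibitor of cell death, with Azi2, an adaptor of TBK1, at -0.12. Of the 9 genes listed with the antigen receptor route (median 0.03), Malt1, the protease that cleaves A20 and Cyld, had 0.08 ± 0.13 (SE). The list takes in Zc3h12a and Rc3h1, which are not themselves steps towards IKK. Zc3h12a, an RNase known as Regnase-1 and also cleaved by MALT1, was at 6.73 and 6.43 log2 units in TACI-/- cells, against 5.94 and 5.99 in WT cells. Its log2 fold change was 0.62 ± 0.15 (SE, limma adjusted p = 0.318), and Bcl10 had 0.39 ± 0.17 (SE).

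Of NF-kB's own genes 8 of 10 tested had a log2 fold change above 0, and of its known targets 16 of 18. Over all tested genes 7137 of 13782 were above 0. Nfkbia, Nfkbie, Nfkb2 and Relb are counted in both lists. The median log2 fold change was 0.18 over the 10 subunit and IkB genes and 0.21 over the 18 NF-kB induced genes. Nfkbid, a nuclear IkB protein, was at 8.44 and 7.83 log2 units in TACI-/- cells, against 7.34 and 7.03 in WT cells, 0.95 ± 0.23 (SE) as a log2 fold change (limma adjusted p = 0.306). Nfkbiz, its relative, had 0.55 ± 0.14 (SE). Nfkbia, the classical feedback inhibitor IkB-alpha, was at 8.62 and 8.46 in TACI-/- cells, against 8.40 and 8.35 in WT cells, a log2 fold change of 0.17 ± 0.13 (SE). Nfkbia was picked after its values were seen. In the induced list, Gadd45b, a stress-induced signalling gene, was at 7.52 and 7.06 in TACI-/- cells, against 6.02 and 5.94 in WT cells, 1.31 ± 0.18 (SE) as a log2 fold change (limma adjusted p = 0.0887), and Cd69, an early activation marker, had 0.82 ± 0.15 (SE, limma adjusted p = 0.211). Gadd45b passed with the stricter filter (limma adjusted p = 0.0439), and Gadd45b and Cd69 passed with limma-trend (0.0198 and 0.0429).

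**Figure D4:**
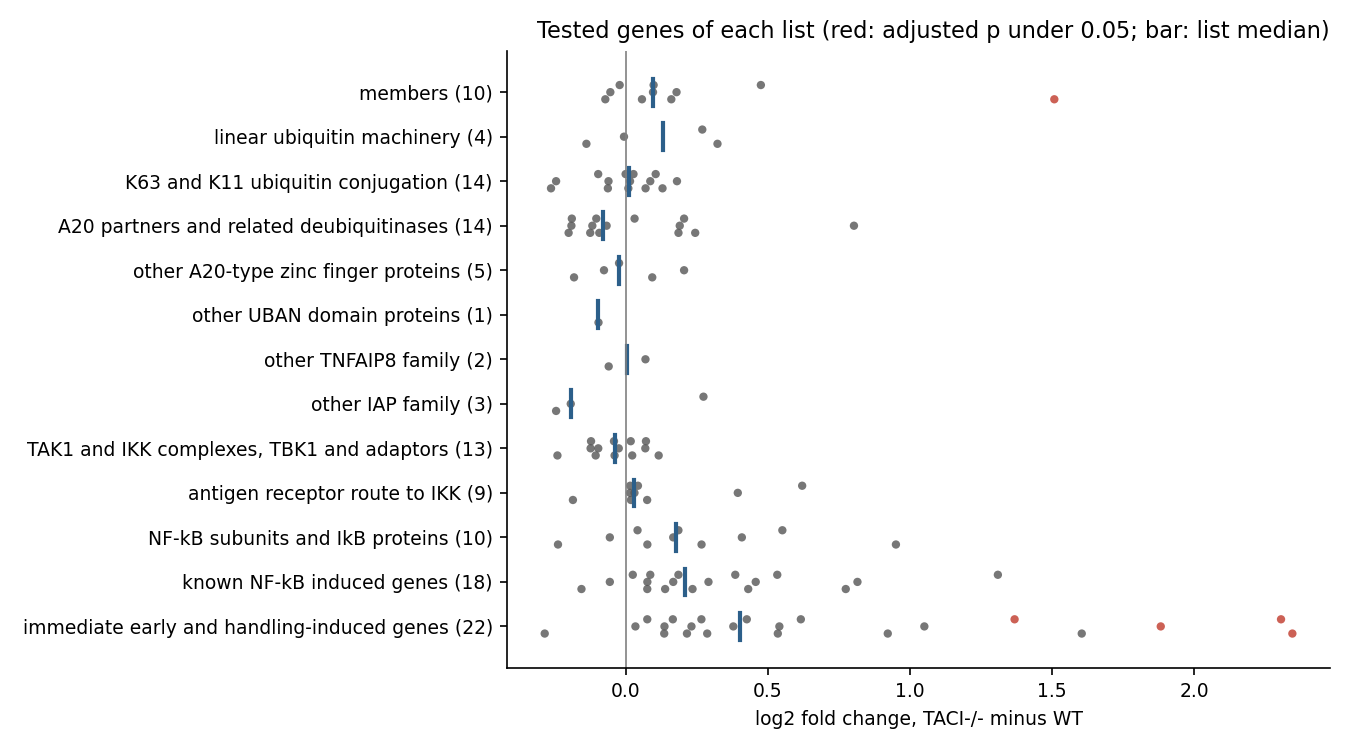
Log2 fold change, TACI-/- minus WT (horizontal axis), of the tested genes in each list (rows, number of genes in brackets); points, genes, shifted up or down to show them apart; red, adjusted p under 0.05; blue bars, list medians. Tnfaip3 at 1.51 is the 1 red point among the members, the other ubiquitin and NF-kB lists have none, and the immediate early list has 4.

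Tnfaip3 was also measured beside genes that respond to stimulation or handling and beside markers of other cells. All 22 immediate early and handling genes were tested, and their median log2 fold change was 0.40. Above 0 were 21 of the 22, against 7137 of all 13782 tested genes. Of the 22, 4 passed as higher in TACI-/- cells (Dusp1, Dusp5, Nr4a2 and Nr4a3, limma adjusted p from 0.00514 to 0.0296) and 0 as lower. Over all tested genes 0.109% were called higher. The summed linear signal of the 22 was 7759 and 6030 in TACI-/- replicates 1 and 2, against 5221 and 4003 in WT replicates 1 and 2. The sum was thus higher in replicate 1 of both genotypes, and so was Tnfaip3, by 0.14 log2 units in TACI-/- and 0.22 in WT cells. For the heat-shock gene Hspa1a the replicates differed by more than the genotypes did. It was at 7.82 and 6.91 log2 units in TACI-/- cells, against 8.51 and 6.79 in WT cells. The part of these genes' common difference in the Tnfaip3 value was not tested.

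Among 7 tested sort markers of naive CD4+ T cells none passed (limma), and 1, Il7r, had an unadjusted p under 0.05. Il7r (log2 fold change -0.48 ± 0.15, SE), Cd3d (-0.30 ± 0.14) and Cd3e (-0.21 ± 0.14) were lower in TACI-/- cells without overlap and Cd44 (0.19 ± 0.14) higher. The summed linear signal of the 7 was 6123 to 6459 in TACI-/- cells and 6895 to 7493 in WT cells. This sum takes in Cd44 and Il2ra (CD25), which the sort selected against, so it does not measure naive identity. The part of these differences in the Tnfaip3 value was not tested.

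Over all tested genes 0.138% were called, and 20.5% were higher and 18.1% lower without overlap. An unadjusted p under 0.05 (limma) was found for 4.94% higher and 3.84% lower. Regulatory T cell markers were tested for 8 of 10 genes, of which 1 passed (Ctla4) and 6 were higher without overlap. An unadjusted p under 0.05 (limma) was found for 5 of the 8, all higher in TACI-/- cells, and 7 of the 8 were above 0. Tigit had a log2 fold change of 1.10 ± 0.22 and Ikzf2 of 0.94 ± 0.13 (SE). The marker Capg had a log2 fold change of -0.15 ± 0.17 (SE), with overlap. The summed linear signal of the 8 was 389 to 405 in TACI-/- cells and 244 to 264 in WT cells. Foxp3 was at 6.19 and 5.98 log2 units in TACI-/- cells, against 5.63 and 5.38 in WT cells. B cell markers were tested for 7 of 14 genes, with none passing in either direction in limma, 3 at an unadjusted p under 0.05, 5 higher without overlap, and a summed linear signal of 215 to 268 in TACI-/- cells and 173 to 188 in WT cells. The widest B cell list differences without overlap were H2-Aa (log2 fold change 0.57 ± 0.14, SE) and H2-Ab1 (0.53 ± 0.22, SE), and Ms4a1 (CD20) was under the filter on all 4 arrays. The CD8 and NK cell markers had 4 of 9 genes tested, none passing, with sums of 165 to 179 in TACI-/- cells and 209 to 217 in WT cells. These 4 were split, with log2 fold changes of 0.79 ± 0.16 for Eomes, 0.17 ± 0.14 for Nkg7, -0.87 ± 0.15 for Klrd1 and -0.65 ± 0.16 (SE) for Cd8b1, all without overlap. The myeloid and dendritic cell markers had 6 of 12 tested, none passing, with sums of 182 to 197 in TACI-/- cells and 153 to 164 in WT cells, and S100a8, Itgax and Adgre1 were among those not tested. Cd68 was higher in TACI-/- cells without overlap (log2 fold change 0.71 ± 0.17, SE), and without it the sums were 92.1 to 92.7 in TACI-/- cells and 96.8 to 101 in WT cells. Lyz2 (-0.49 ± 0.15, SE) and Csf1r (-0.15 ± 0.13, SE) were lower in TACI-/- cells without overlap. The part of such cells in the Tnfaip3 and Tnip1 values was not tested.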

How the data were processed

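RNA of sorted naive CD4+ T cells was hybridised to Affymetrix Mouse Gene 2.0 ST arrays, 2 TACI-/- and 2 WT. The deposited table holds 1 log2 value per probe set and array. The submitters' processing notes name RMA and Partek, without versions. RMA output and the range of 0.94 to 13.2 point to base 2, which no label states. No genome build is given in the sources used here. RMA forces the arrays to 1 distribution and compresses differences of dim probe sets.

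Of 41345 probe sets, the platform annotation gave 23521 exactly 1 gene symbol. Each gene took its probe set with the highest mean over the 4 arrays and was tested where at least 2 arrays reached that array's 40th percentile of those probe sets. Genotypes were compared over all 13782 such genes with limma 3.58.1 in R 4.3.3. The linear model had genotype alone, with empirical Bayes variances and two-sided p-values, and genes were called at 0.05 after Benjamini-Hochberg adjustment. The fit was also run on values simulated from its own means and variances, which cannot check the model's assumptions. Fold changes are TACI-/- minus WT. The 95% intervals use the moderated SE with 6.59 degrees of freedom.

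The members and lists were chosen with earlier results of these data known. All members were named; of each list, the called genes or else the 2 largest differences without overlap between genotypes, other genes being picked after their values were seen (Itch, Rnf11, Malt1, Foxp3, Hspa1a, Naip5, Csf1r, the Tnfaip8 relatives and Nfkbia among them). A further 17 listed genes had no such probe set and were not analysed here. Replicate numbers are the same in both genotypes, and the sources used here do not say whether same-numbered samples were processed together. Deviations of same-numbered arrays correlated at r = -0.03 over genes, a value that does not show what smaller sets of genes share. The main fit had no block, and a fit with a replicate block is given below. Promoter windows are RefSeq's, and gene order is that of GRCm38.p6.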

Additional observations from a re-analysis of the deposited data

How the results depend on the processing

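The genotype direction of Tnfaip3 held in all 14 alternatives, and its call in 8 of them. The direction could change only with median centring, quantile normalization again or an array left out. The 14 therefore overstate how often the direction was tried. The call was lost with no low-value filter and with no variance moderation (log2 fold change 1.51 in each) and without each array in turn (1.40 to 1.62), where 0 members and 0 genes were called and limma gave 721 to 1145 genes an unadjusted p under 0.05. The number of genes called was 3 with no low-value filter (0 members), 35 with the filter on all 4 arrays, 12 with quantile normalization again, 46 with limma-trend, 38 at an adjusted p under 0.1 and 317 at an unadjusted p under 0.05 with 1.5-fold change. It was 0 with no variance moderation (0 members; 986 genes at an unadjusted p under 0.05). Of the other pathway genes, 1 passed with the stricter filter, 2 with limma-trend, 6 at the unadjusted threshold and 1 at an adjusted p under 0.1. The median log2 fold change of the members was 0.041 to 0.13 without each array. Of the other 9 members' 126 values, 119 kept their sign and stayed uncalled. Here too a sign could change only with median centring, quantile normalization again or an array left out, so the 126 overstate how often the signs were tried. The 7 that changed sign all came from leaving out 1 array, where Tnip2 ran from -0.076 to 0.43, Cyld from -0.075 to 0.033, Birc2 from -0.062 to 0.26 and Tnfaip8 from -0.31 to 0.17. With the replicate block 13 genes were called, Tnfaip3 among them, and no call of a member or other pathway gene changed. The causes of these differences were not tested beyond the number of genes or arrays that each alternative changes. With an array left out, the lone sample of that genotype borrows its spread from the other genotype.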
